A study of Caenorhabditis elegans with 2 samples.

Results

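The genes described here are named for proteins of the large subunit of the cytosolic ribosome in Caenorhabditis elegans. They were taken as every protein-coding gene of the Ensembl WBcel235 annotation whose symbol starts with rpl- or rla-, which gave 50 of 19973 protein-coding genes, 47 named rpl- and 3 named rla-. Symbols outside these 2 prefixes were not added, and the product of each gene was not checked. Binding of RBM-26 to chromatin at these genes was read from peak lists of a ChIP-seq experiment, in which DNA bound by a tagged protein is precipitated and sequenced. RBM-26 is the product of rbm-26, also called B0336.3. The worms were strain OP801, whose integrated transgene wgIs801 carries B0336.3 fused to TY1, EGFP and 3xFLAG tags with unc-119(+) as the rescue marker, in the unc-119 mutant tm4063. Whole young adults were used at 66 hours, grown from L1 larvae that had been starved after bleaching, and the precipitation used an antibody against GFP on chromatin sonicated to fragments of 200 to 800 bp. There were 2 libraries, biological replicates 1 and 2 of 1 group, and the design holds no second condition to test against. The labels name no change at the endogenous rbm-26 gene, and the tagged copy is read out from all tissues of the animal together. The possible control that the labels name was not analysed here. Read numbers per library were not at hand, so depth is unknown.

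The large subunit holds the centre where peptide bonds are formed, the tunnel through which the new chain leaves, and a stalk of acidic proteins that recruits translation factors. Its protein genes are short and strongly transcribed in growing animals, and in C. elegans many such genes are trans-spliced, so that the annotated start of the gene is the splice site and transcription begins further upstream. RBM-26 is an RNA-binding protein whose human relatives RBM26 and RBM27 take part in nuclear RNA surveillance. A ChIP-seq region at a gene records that the protein was crosslinked near that DNA, directly or through other molecules.

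RBM-26 regions lay at most large subunit genes, and more of these genes had the summit just past the end of the gene than before its start. In the conservative list, which the authors made from both replicates, 44 of the 50 genes had a summit within the gene or within 500 bp of either end, which is 88% of them. The same held for 12.6% of all protein-coding genes. A summit 1 to 500 bp past the end was found at 36 of the 50 genes, against 4.95% of all genes. A summit 1 to 500 bp upstream of the start was found at 15, against 4.59% of all genes, and one inside the gene at 6, against 4.94%. The genes with a summit past the end and no other summit numbered 24 (3.49% of all genes), those with an upstream summit alone numbered 3 (3.26%), and 11 had both (0.991%). When each summit was instead given to the nearest protein-coding start within 1000 bp, 22 of the 50 genes were called, against 6.66% of all genes. A summit could count for several genes at once, and with each summit given to its nearest protein-coding gene alone, 19 of the 50 were called (8.94% of all genes), 9 upstream (2.79%) and 8 past the end (1.91%).

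The genes are short, with a median length of 754 bp (276 to 1734 bp) against 2027 bp for all protein-coding genes. Among the 8382 protein-coding genes no longer than the longest large subunit gene, 9.89% had a summit in or near the gene and 5.23% had one past the end. In replicate 1, 44 genes were called (9.86% of all genes), 31 past the end (3.51%) and 14 upstream (3.55%). In replicate 2, 42 genes were called (8.89%), 31 past the end (3.61%) and 11 upstream (3.1%). Genes with both an upstream summit and one past the end were fewer in the replicates than the 11 of the conservative list, 5 in replicate 1 (0.531% of all genes) and 6 in replicate 2 (0.486%). In the conservative list all 17 large subunit genes on chromosome I were called (17.1% of all genes there) and all 5 on chromosome V (9.13%). On chromosomes II, III and IV the counts were 8 of 9 (12.6%), 7 of 9 (18%) and 7 of 8 (14%). Neither of the 2 genes on the X chromosome was called, where 7.58% of all genes were.

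**Figure D1:**
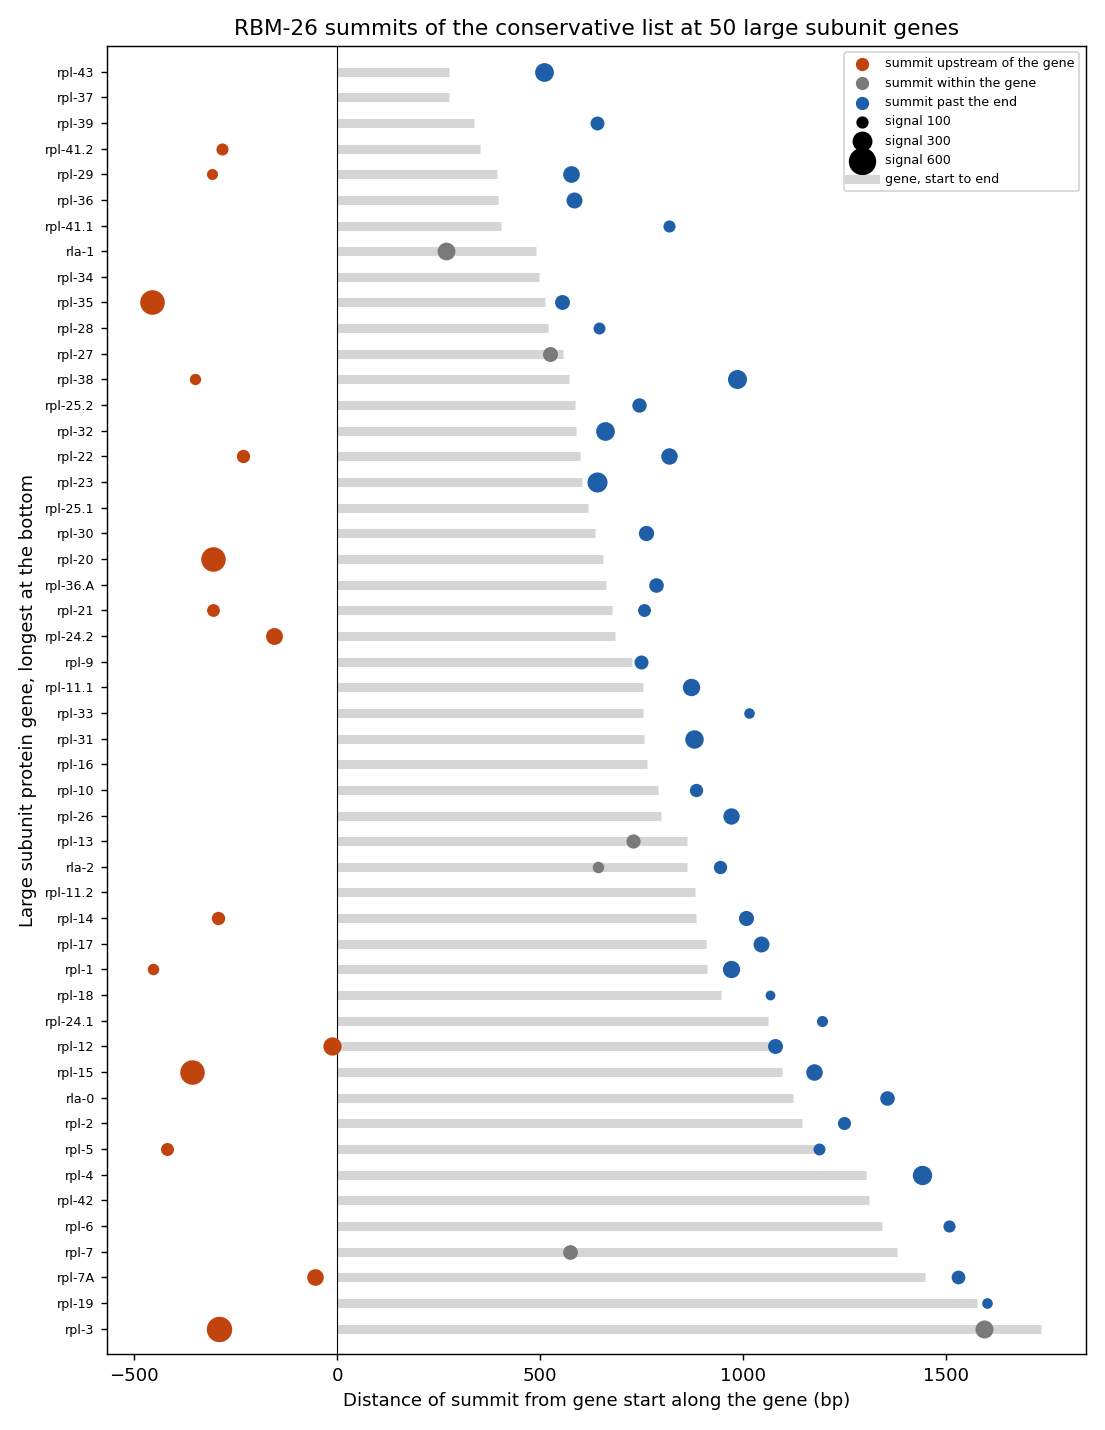
Position of each conservative-list summit relative to the start of the gene, in bp along the gene's own direction, for the 50 large subunit genes ordered by length. Grey bars span each gene, points are summits coloured by position, and point area follows the authors' peak signal, so the blue points of 36 genes trail the gene ends while 4 large orange points sit 292 to 457 bp upstream.

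Most of the 36 summits past the end lay within 200 bp of it in the conservative list. Their median distance was 124 bp, with a range from 13 bp at rpl-5 to 415 bp at rpl-41.1, and 29 of them (80.6%) lay within 200 bp. Over all protein-coding genes the 989 pairs of a gene and a summit past its end had a median of 173 bp, and 58.7% lay within 200 bp. In the replicates' own lists the medians were nearer to those of all genes, 175 bp against 185 bp in replicate 1 and 142 bp against 156 bp in replicate 2. In bins of 100 bp, 13 large subunit genes had a summit in the first 100 bp past the end and 16 in the next 100 bp, which is 26% and 32% of the 50 genes, against 1.05% and 1.86% of all genes. Of the 6 summits inside a gene, 5 lay nearer the end than the start. They were 32 bp before the end of rpl-27, in its 3' UTR, 132 bp before that of rpl-13 and 139 bp before that of rpl-3, both in coding exons, 218 bp before that of rla-2 in a coding exon, and 220 bp before that of rla-1 in an intron. The sixth lay 805 bp before the end of rpl-7, in a coding exon and 187 bp from the snoRNA gene F53G12.12.

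**Figure D2:**
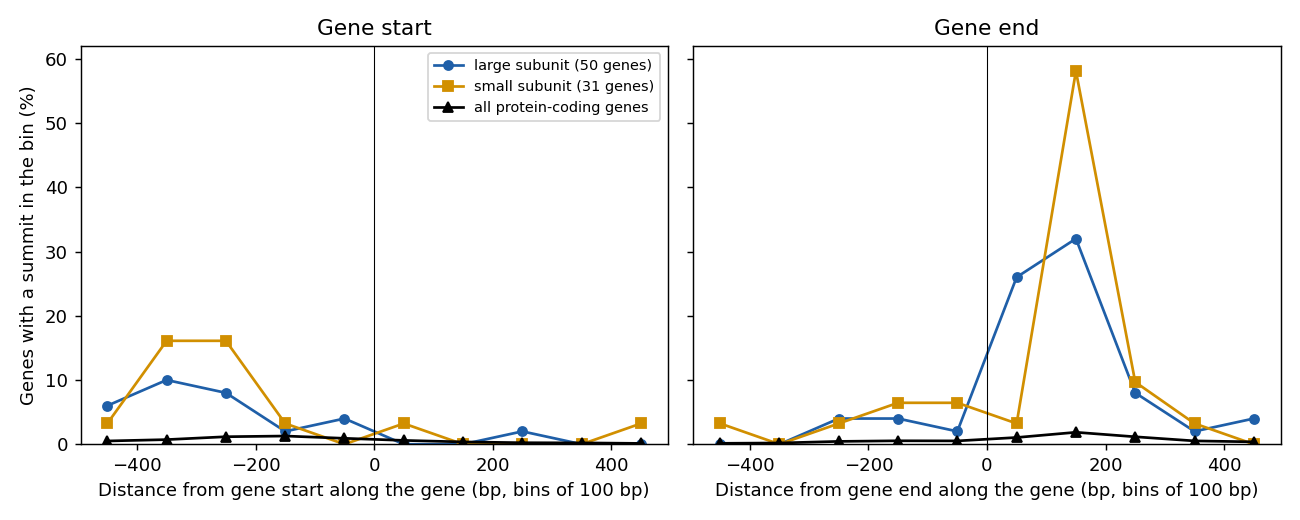
Percentage of genes with a conservative-list summit in each 100 bp bin around the gene start (left) and the gene end (right), for 50 large subunit genes, 31 small subunit genes and all 19973 protein-coding genes. The large subunit line reaches 26% and 32% in the first 2 bins past the end, and 10% in the bin 300 to 400 bp upstream of the start.

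C. elegans genes are closely packed, and most of these summits also lay at another gene. Of the 36, 23 were inside another protein-coding gene, 12 on the same strand as the large subunit gene and 11 on the opposite strand. The other 13 fell between genes, 10 before a following gene on the same strand and 3 between convergent genes. These settings were not counted over all genes, so they describe these summits only. The start of another protein-coding gene lay within 500 bp of 21 summits, 19 of these starts being on the same strand. At rpl-10 the start of F10B5.2 was 3 bp from the summit, at rpl-15 that of K11H12.1 was 20 bp away, at rpl-43 that of xrn-2, a nuclear 5' to 3' exonuclease gene, 35 bp, and at rpl-23 that of swp-1 37 bp. The remaining 15 summits, 41.7% of the 36, had no other protein-coding start within 500 bp, and 12 had none within 1000 bp. Over all genes 57.4% of the pairs past the end had none within 500 bp. The signals of both sets overlapped, with a median of 205 (102 to 346) at the 15 summits without another start and 197 (88.8 to 371) at the 21 with one. The summits at rpl-11.1, rpl-7A and rpl-25.2 lay between convergent gene ends, with the nearest other start 1447, 1783 and 1547 bp away. The large subunit gene was the nearest protein-coding gene to 8 of the 36 summits. Over all genes the same held for 381 of the 989 genes with a summit past the end, which is a larger part. Those 381 are 1.91% of all protein-coding genes.

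The signal is the authors' own value for a peak. Levels are ranked here only within 1 list, and where the replicates' values are set side by side each comes from its own list, with its own scale. The 44 genes held 56 regions, 2.32% of the 2416 that this list has on the nuclear chromosomes. Their median signal was 203 (88.8 to 595, SD 117), above the list's median of 144, and 44 of the 56 regions (78.6%) exceeded that median. The regions past the end had a median of 201 (88.8 to 371), those within genes 203 (122 to 300.1) and those upstream 165 (113 to 595), the widest spread of the 3 classes. Over all protein-coding genes the medians were 149 past the end, 135 within and 160.4 upstream, the last near the 165 here. The small subunit genes had 206, 196 and 200.1. The upstream class held 4 of the highest regions of the whole list, ranked 6, 13, 14 and 15 of 2416, and also some of the lowest at these genes.

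The 4 high regions lay upstream of rpl-3, rpl-35, rpl-15 and rpl-20. At rpl-3 (chromosome III, 3867854 to 3869587, plus strand), whose yeast counterpart sits next to the peptidyl transferase centre, the summit was 292 bp upstream with a signal of 595. Replicate 1 had it at 294 bp with 345 and replicate 2 at 298 bp with 255. The summit of 300.1 near the end of the gene had 156 and 162. At rpl-35 (chromosome III, 7855134 to 7855646, plus strand), a protein by the exit of the tunnel, the upstream summit was at 457 bp with 558. The replicates gave 456 bp with 277 and 457 bp with 289. At rpl-15 (chromosome IV, 653480 to 654576, minus strand) it was at 358 bp with 554, replicate 1 gave 356 bp with 305, and replicate 2 gave 345 bp with 250, rank 18 of its list. A second summit of rpl-15, 79 bp past the end, had 252. At rpl-20 (chromosome IV, 4749123 to 4749778, minus strand) it was at 307 bp with 553, and the replicates gave 308 bp with 273 and 291 bp with 292. Replicate 2 alone also had a summit 137 bp past the end of rpl-20, with 139.8. All 4 were high in both replicates and kept their place within 16 bp of the conservative summit. The start of Y17G9B.5 lay 155 bp from the rpl-20 summit and that of K11H12.8 456 bp from the rpl-15 summit, while the nearest other protein-coding start was 3073 bp away at rpl-3 and 2565 bp away at rpl-35.

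The sequences below are upstream summits with 50 bp on each side, on the strand of the gene and 5' to 3', from the RefSeq WBcel235 assembly. They are shown because they hold the 4 highest regions and the 3 summits where a pair of short words stands in 1 fixed spacing. Capitals mark the words ACCGTA and AGTGT on either strand (TACGGT and ACACT on the other strand). These words were chosen after the windows had been read.
rpl-3 upstream, chrIII:3867512-3867612, plus strand: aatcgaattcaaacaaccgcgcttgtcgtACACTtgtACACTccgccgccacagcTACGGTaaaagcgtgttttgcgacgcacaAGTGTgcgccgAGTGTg
rpl-35 upstream, chrIII:7854627-7854727, plus strand: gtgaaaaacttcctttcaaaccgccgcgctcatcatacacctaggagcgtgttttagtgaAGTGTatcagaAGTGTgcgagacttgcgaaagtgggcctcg
rpl-15 upstream, chrIV:654884-654984, minus strand: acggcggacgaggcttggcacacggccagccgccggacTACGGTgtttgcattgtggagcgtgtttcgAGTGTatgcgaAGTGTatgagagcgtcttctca
rpl-20 upstream, chrIV:4750035-4750135, minus strand: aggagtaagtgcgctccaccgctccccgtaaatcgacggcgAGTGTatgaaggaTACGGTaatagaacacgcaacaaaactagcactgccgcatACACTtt
rpl-21 upstream, chrIII:8130484-8130584, minus strand: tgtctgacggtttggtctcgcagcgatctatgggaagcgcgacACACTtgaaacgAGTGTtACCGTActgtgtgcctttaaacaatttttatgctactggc
rpl-22 upstream, chrII:5055335-5055435, plus strand: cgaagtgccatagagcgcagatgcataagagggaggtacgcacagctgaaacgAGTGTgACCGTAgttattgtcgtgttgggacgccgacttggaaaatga
rpl-38 upstream, chrV:15511766-15511866, plus strand: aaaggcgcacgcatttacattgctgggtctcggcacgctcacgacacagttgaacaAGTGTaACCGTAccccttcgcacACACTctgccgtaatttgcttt

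ACCGTA was present on either strand in the windows of 8 of the 15 upstream summits (53.3%), at rpl-3, rpl-5, rpl-14, rpl-15, rpl-20, rpl-21, rpl-22 and rpl-38. It was present in 5.59% of the windows of all regions and in 10.5% of those at upstream summits of any gene. AGTGT was present in 9 of the 15 (60%), against 22.5% of all regions and 23.8% of upstream summits of any gene. Both words stood in the window of 6 of the 15 (40%), against 1.28% and 2.93%. Since the words were picked from these windows, their shares there are a description of how they were picked. The 36 windows past the end held ACCGTA in 1 case (2.78%) and AGTGT in 8 (22.2%).

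The same words were counted in the 500 bp upstream of every gene, whether or not a summit lay there. ACCGTA was found upstream of 25 of the 50 large subunit genes (50%) and of 13.9% of all protein-coding genes, and AGTGT upstream of 68% and 57%. Both stood upstream of 40% of the large subunit genes and 8.06% of all genes. The spaced form, AGTGT followed after 1 base by ACCGTA on either strand, stood upstream of 9 of the 50 genes (18%), namely rpl-1, rpl-6, rpl-11.2, rpl-21, rpl-22, rpl-24.1, rpl-29, rpl-34 and rpl-38. Over the genome 49 of 19973 genes had it (0.245%). It stood upstream of 6 of 31 small subunit genes (19.4%) and of 0 of 41 mitochondrial large subunit genes. The words came from windows of some of these same genes. Among the 15 genes with an upstream summit, ACCGTA stood upstream of 73.3%, both words of 66.7% and the spaced form of 5 (33.3%). Among the 35 without one, the shares were 40%, 28.6% and 4 genes (11.4%). The words were picked from windows at genes with an upstream summit, so the contrast between these sets follows in part from that choice. An upstream summit in the conservative list lay at 5 of the 9 genes with the spaced form, and rpl-11.2 and rpl-34 were not called in that list at all. A match is a run of letters and not a site of binding.

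The windows past the end were richer in A and T. Their median GC content was 39.1% (24.8 to 62.4%, 36 summits) against 51.5% (47.5 to 64.4%, 15 summits) for the upstream windows. Over all genes the medians were 42.6% past the end and 47.5% upstream, and 46.5% over all regions. The 5 windows below show this class, with no protein-coding exon inside the window, and capitals as above. The nearest other start was 1447 bp away at rpl-11.1, 1381 bp at rpl-21, 91 bp at rpl-26, 1783 bp at rpl-7A and 165 bp at rpl-18. AGTGT stands in those of rpl-7A and rpl-18, and the other 3 hold neither word. That of rpl-21 can be set beside the upstream window of the same gene.
rpl-11.1 past the end, chrV:3585142-3585242, minus strand: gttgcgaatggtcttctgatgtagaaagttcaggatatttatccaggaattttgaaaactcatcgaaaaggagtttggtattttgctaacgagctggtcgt
rpl-21 past the end, chrIII:8129421-8129521, minus strand: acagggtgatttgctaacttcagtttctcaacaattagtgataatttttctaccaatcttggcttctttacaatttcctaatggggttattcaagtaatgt
rpl-26 past the end, chrII:8603705-8603805, plus strand: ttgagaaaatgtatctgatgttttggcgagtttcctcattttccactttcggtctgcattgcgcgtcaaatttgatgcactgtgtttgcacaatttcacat
rpl-7A past the end, chrIV:4389011-4389111, minus strand: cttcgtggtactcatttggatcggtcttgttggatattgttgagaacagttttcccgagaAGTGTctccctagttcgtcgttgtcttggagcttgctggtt
rpl-18 past the end, chrIV:13778881-13778981, plus strand: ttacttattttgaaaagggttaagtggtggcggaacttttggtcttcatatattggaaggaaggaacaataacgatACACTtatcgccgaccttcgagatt

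Words with known roles at gene ends and starts were also counted on either strand. AATAAA, the commonest poly(A) signal, was in 7 of the 36 windows past the end (19.4%), as in 19.4% of those past the end of any gene and 14.1% of all regions. TTTCAG, the end of the splice acceptor, was also in 7 (19.4%), against 14.3% past the end of any gene and 9.85% of all regions. TATAAA was in 4 of the 36, against 5.84% of all regions, and a run of 8 T was in none, against 4.47%. GAGAGA was in 3 of the 15 upstream windows (20%), near its 18.3% over all regions. TTTCAG stood directly before the annotated start of 25 of the 50 genes (50%), against 12.3% of all protein-coding genes. For these 25 genes the annotated start follows the letters of an acceptor, so the distance of an upstream summit from the site of initiation is not known.

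At the stalk genes the summits were inside the gene or past its end. At rla-0 (chromosome I, 10567894 to 10569017, plus strand), the P0 protein that anchors the stalk, the summit was 231 bp past the end with a signal of 196. Replicate 1 had it at 271 bp with 66.6 and replicate 2 at 242 bp with 121. A snoRNA gene, F25H2.14, lay at this summit and the start of tct-1 lay 136 bp from it. At rla-1 (chromosome I, 2069086 to 2069575, minus strand), encoding P1, the intronic summit lay 269 bp from the start and 220 bp before the end with 289.9. Replicate 1 had it 278 bp from the start with 171, and replicate 2 had it nearer the start, at 168 bp, with 131. At rla-2 (chromosome IV, 13369425 to 13370285, minus strand), encoding P2, there was a summit 84 bp past the end with 164 and one in a coding exon with 122. The replicates placed the summit past the end at 67 bp with 79.2 and at 85 bp with 94.4. The region in the coding exon overlapped no region of either replicate's own list. None of the 3 had an upstream summit in the conservative list. At rpl-12, which forms the base of the stalk, both ends were marked, 13 bp upstream with 307 and 15 bp past the end with 206. Its upstream summit was at 4 bp with 158 in replicate 1 and at 30 bp with 159 in replicate 2.

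The proteins that carry 5S rRNA into the subunit are RPL-5 and RPL-11. At rpl-5 the summits were 420 bp upstream with 156, at 389 bp with 80.9 and 396 bp with 77.1 in the replicates, and 13 bp past the end with 132. In replicate 1 the latter stood 215 bp before the end with 80.7, and the list of replicate 2 had no such region. RPL-11 is encoded by a pair of genes that differed. At rpl-11.1 (chromosome V, 3585312 to 3586064, minus strand) the summit was 120 bp past the end with 279, at 64 bp with 104 in replicate 1 and 161 bp with 179 in replicate 2. At rpl-11.2 (chromosome X, 2241738 to 2242618, minus strand) the conservative list and that of replicate 1 had no summit, and replicate 2 had one 383 bp upstream with 104. The longer ranked lists gave this gene at most 35.8 between replicates and 34 in replicate 1.

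The genes of several proteins along and around the exit tunnel are described next. At rpl-4 (chromosome I, 4645662 to 4646963, minus strand), whose product reaches into the tunnel, the summit was 140 bp past the end with 346, at 204 bp with 153 in replicate 1 and 172 bp with 189.9 in replicate 2. It lay within lmd-2, on the opposite strand. At rpl-17, also of the tunnel wall, it was at 135 bp with 235, and at rpl-39, which also lines it, at 302 bp with 179. At rpl-31 (chromosome I, 13652949 to 13653704, minus strand), by the tunnel exit, it was at 125 bp with 315, and the replicates gave 84 bp with 115 and 142 bp with 196. At rpl-26 it was at 174 bp with 246, at 201 bp with 89.2 and 147 bp with 156 in the replicates. The listed value was the higher in replicate 2 at rpl-4, rpl-31 and rpl-26. At rpl-35 the summit past the end, 41 bp from it, had 205, well below the 558 of its upstream summit. At rpl-19, also near the exit, the summit was 25 bp past the end with 104, at 190 bp with 63.1 in replicate 1 and none in the list of replicate 2.

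Of the other high regions past the end, that of rpl-23 had the highest signal of the class. Its product lies at the face that meets the small subunit. At rpl-23 (chromosome III, 5705525 to 5706127, minus strand) the summit was 37 bp past the end with 371, at 19 bp with 138 in replicate 1 and 30 bp with 222 in replicate 2. This gene lies 5415 bp from rbm-26 itself (chromosome III, 5711542 to 5714846), the gene that the transgene carries. Within 20 kb of rbm-26 there were 6 conservative regions in 43.3 kb, or 13.9 per 100 kb, against 2.41 per 100 kb over the nuclear genome, and rpl-23 was the 1 large subunit gene there. The labels do not give the ends of the transgene insert, and its part in the signal at rpl-23 was not tested. After rpl-4, described above, the next were rpl-38 (chromosome V, 15512166 to 15512737, plus strand), 414 bp past the end with 333, rpl-43 (chromosome II, 14155294 to 14155569, plus strand), 234 bp with 325, and rpl-32 (chromosome II, 9056497 to 9057085, minus strand), 71 bp with 323. Replicates 1 and 2 had rpl-38 at 413 bp with 145 and 358 bp with 195. They had rpl-43 at 222 bp with 134 and 208 bp with 190.5, and rpl-32 at 97 bp with 168 and 73 bp with 153. Of these 3, only rpl-32 had the higher value in replicate 1.

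Besides rpl-11.1 and rpl-11.2, the pairs of genes numbered in the same way also differed within themselves. They were paired by symbol alone, and whether both genes of a pair encode the same protein was not checked. At rpl-24.1 the summit was 133 bp past the end with 114, at 175 bp with 61.3 in replicate 1 and absent from the list of replicate 2, whereas at rpl-24.2 it was 157 bp upstream with 263 and stood at 166 bp with 135 and 155 bp with 122 in the replicates. At rpl-25.2 it was 159 bp past the end with 191, and the replicates gave 120 bp with 97.5 and 156 bp with 107. At rpl-25.1, on the X chromosome, no thresholded or ranked list used here had a summit. The neighbouring genes rpl-41.1 and rpl-41.2 shared 1 region of signal 135, which lay 415 bp past the end of the first and 285 bp upstream of the second and had 82.5 in replicate 1. Replicate 2 instead had a summit 143 bp past the end of rpl-41.2 with 109. The wider list of the series had this summit too, at 142 bp with 174, and the conservative list did not. No ranked peak of replicate 1 covered it.

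The remaining called genes fall into 3 sets. A summit on both sides was found at rpl-1 (61 bp past the end with 276, 453 bp upstream with 122), rpl-7A (82 bp with 174, 56 bp with 255), rpl-14 (122 bp with 209.6, 293 bp with 165), rpl-21 (80 bp with 154, 307 bp with 152), rpl-22 (219 bp with 249, 231 bp with 164) and rpl-29 (184 bp with 257, 309 bp with 113). At rpl-7A alone of these 6 was the upstream region the higher. Only rpl-7A had a summit on both sides in each replicate's own list. At rpl-14 replicate 1 had the upstream summit alone and replicate 2 the one past the end alone. Neither replicate's list had the upstream summit of rpl-29. The genes with a summit past the end and none upstream included rpl-36 (188 bp with 236), rpl-30 (127 bp with 215), rpl-36.A (123 bp with 197), rpl-9 (22 bp with 181), rpl-2 (104 bp with 158), rpl-6 (165 bp with 136) and rpl-28 (125 bp with 132). The summits inside rpl-27, rpl-13 and rpl-7 had signals of 207, 186 and 199.7. These genes were called in both replicates, although rpl-27 had its replicate 1 summit 124 bp past the end with 103 and its replicate 2 summit inside the gene with 121.

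Of the 50 genes, 38 were called in the conservative list and in both replicates' own lists. Taken singly, the conservative list called 12.6% of all genes, that of replicate 1 called 9.86% and that of replicate 2 called 8.89%. The share of all genes called in every one of them was not counted. Called in the conservative list and replicate 1 only were rpl-19, rpl-24.1, rpl-33 and rpl-41.1, and called in the conservative list and replicate 2 only were rpl-10 and rpl-18. At rpl-33 the summit was 261 bp past the end with 102, and at 300 bp with 55.6 in replicate 1. The wider list of the series had no summit at rpl-33 or rpl-19. At rpl-10, whose yeast counterpart joins the subunit late in its assembly, it was 94 bp past the end with 163, and at 46 bp with 119 in replicate 2, while the ranked list of replicate 1 gave 47.7. At rpl-18 it was 122 bp past the end with 88.8, the lowest signal of all 56 regions, and replicate 2 had 18.4 inside the gene, 261 bp before its end. All 6 of these genes had conservative signals of 163 or less, below the median of 203.

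The other 6 genes were not called in the conservative list. At rpl-34 both replicates had a region, with 73.7 inside the gene in replicate 1 and 63.9 at 354 bp past the end in replicate 2. The wider list of the series had it 178 bp past the end with 85.4, and its deposited −log10 IDR (irreproducible discovery rate, a measure of how well ranks in both replicates match) was 0.272 in the between-replicate ranked list. At rpl-16 replicate 1 had 71.7 inside the gene and 25.9 past its end, and the wider list had it 261 bp past the end with 97.3. The between-replicate ranked list had a peak of 105 with a −log10 IDR of 1.23, and the ranked list of replicate 2 had 72.3 at 155 bp past the end. The third, rpl-11.2, is described above. No list used here had a peak at rpl-25.1, rpl-37 or rpl-42, and at rpl-42 the nearest conservative region, 2397 bp past the end, was that of rpl-36.A. Without a read depth, a missing peak says only that none was listed.

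Most of the regions at large subunit genes were listed in both replicates. Of the 56, 41 (73.2%) overlapped a region in each replicate's own list, against 45.4% of all 2416, and 36 of the 50 genes had such a region. The share of all genes with such a region was not counted. Those overlapping replicate 1 alone numbered 9 (16.1%, against 22.4%), those overlapping replicate 2 alone 4 (7.14%, against 9.31%), and 2 overlapped neither (3.57%, against 22.9%). Their signals were also higher than the list's median, and the part of this in the overlap was not tested. Across the 55 regions with a ranked peak in both replicates, Spearman's rho between the replicates' signals was 0.745 and Pearson's r of the log10 signals was 0.751. Over 2357 regions of the list these were 0.61 and 0.691. Regions of 1 library share its depth, so these values describe the lists and carry no p. Where both replicates had a summit of the same class at a gene, upstream summits differed between replicates by a median of 11 bp (1 to 33 bp, 9 genes) and those past the end by 36 bp (3 to 169 bp, 23 genes). Summits that changed class were left out, and some lay further apart. That of rpl-27 was 124 bp past the end in replicate 1 and 200 bp before it in replicate 2. That of rpl-1 was 152 bp before the end in replicate 1 and 84 bp past it in replicate 2.

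**Figure D3:**
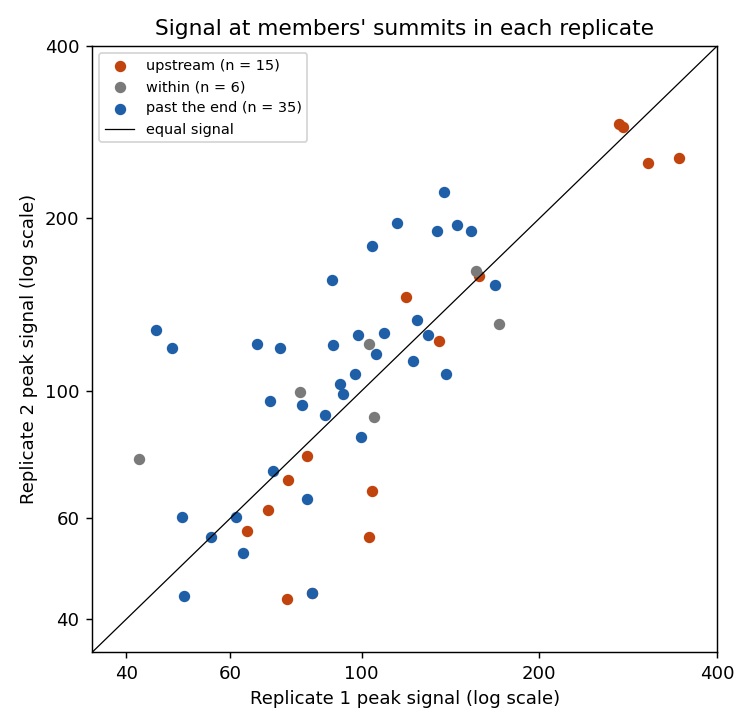
Authors' peak signal in replicate 1 (horizontal) and replicate 2 (vertical), both on log scales, at the conservative-list summits of the large subunit genes that had a ranked peak in both, with the line of equal signal. Of the blue points past the end 25 of 35 lie above the line, and of the orange upstream points 4 of 15 do.

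The balance between the replicates moved with position. Past the end the median log2 ratio of replicate 2 to replicate 1 signal was 0.17 (-0.89 to 1.51) and 25 of 35 summits (71.4%) were higher in replicate 2. Upstream it was -0.16 (-0.89 to 0.30) and 4 of 15 (26.7%) were higher in replicate 2. The 6 summits inside genes had a median of 0.14. Over all protein-coding genes the medians were 0.06 past the end (55.8% higher in replicate 2), -0.09 upstream (41.3%) and -0.06 inside genes (45.5%), the last on the other side of 0 from the large subunit genes. The small subunit genes had 0.24 past the end (14 of 22 higher in replicate 2) and -0.30 upstream (3 of 12). Since signals of separate lists have their own scales, the ratio has no fixed zero, and with 1 library on each side the difference by position has no replicate check.

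Other genes of the translation machinery were counted the same way. All 31 small subunit protein genes (rps-) were called in the conservative list, 23 past the end with a median distance of 138 bp, 12 upstream and 6 inside. In the bin 100 to 200 bp past the end were 58.1% of them, and in the first 100 bp 3.23%, where the large subunit genes had 32% and 26%. Of 41 mitochondrial large subunit genes (mrpl-), whose products make the ribosome of the organelle, 11 were called (26.8%), 3 of them past the end (7.32%). All 6 elongation factor genes (eef-) were called, 4 upstream, 4 inside and 3 past the end. Of 22 ribosome assembly genes 8 were called (36.4%), 4 upstream (18.2%), 3 past the end (13.6%) and 2 inside (9.09%). They included eif-6, whose product keeps the large subunit apart until it is mature, with 107 at 91 bp past the end, and fib-1, the fibrillarin gene, with 131 at 91 bp upstream. Of all protein-coding genes 12.6% were called, 4.59% upstream, 4.95% past the end and 4.94% inside. The counts of these sets were not tested against those shares or against one another, and several rest on few genes.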

How the data were processed

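The authors deposited peak lists on ce11, per the labels, and each list holds overlapping rows. The authors' signal value of each peak (column 7) and the deposited −log10 IDR of the ranked lists were used as given. No aligner or peak caller is given in the sources used here. The highest interval ends did not exceed the lengths of the 6 nuclear chromosomes in the RefSeq WBcel235 genome, and 10 mitochondrial rows were left out. Overlapping rows were merged to 1 region with the summit of highest signal. Genes came from Ensembl release 115, and a summit could count for several genes. A gene was called with a summit inside it or within 500 bp. Values in the replicates' own lists were given for the 10 called genes of highest signal, the rla- genes, genes numbered in pairs, and genes called in some lists only. They were not given for every region of these genes, and wider-list values were given for few. The genes, lists and counts were chosen with earlier results of these data known. The count code was tested on simulated data. Python 3.11.15, numpy 2.4.6, scipy 1.17.1 and matplotlib 3.10.9 were used. Alternatives changed windows, lists, merging, assignment of summits, small RNA regions and replicates.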

Additional observations from a re-analysis of the deposited data

How the results depend on the processing

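Under the alternatives, 36 recomputed values stayed within 1.5 times the value given above, and 9 did not. The median signal of 203 was 99.7 to 121 in the lists of single replicates, whose scales differ. The other 7 were counts that fell, and all concern how summits are given to genes. With each summit given to its nearest protein-coding gene alone, 19 genes were called instead of 44, 9 instead of 15 upstream and 8 instead of 36 past the end. With a start window of 500 bp in place of 1000 bp, 12 genes were called by nearest start instead of 22. With a window of 250 bp, 4 genes had an upstream summit. Without summits that had another protein-coding start within 500 bp, an alternative chosen after seeing the data, 7 genes remained upstream and 15 past the end. Over all genes 568 of the 989 pairs past the end remained. For the counts of 12, 4 and 7 the share of all genes under the same alternative was not counted. They cannot be read as above or below that share. No paired analysis was possible because the 2 libraries form 1 group. Unknown depth limits what a missing peak shows.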
